A study of Mus musculus with 12 samples.

Results

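The response of wild-type (WT) mouse embryoid bodies to activin, set against SB431542, was read from 4 of the 12 arrays of the series, the 2 titled WT-ac and the 2 titled WT-SB, and is described here across 18193 genes. Embryoid bodies are floating aggregates in which mouse embryonic stem cells begin to differentiate, and these were grown from cells of strain 129 in medium lacking LIF. At day 2.5 they received either activin at 50 ng/ml (WT-ac) or the kinase inhibitor SB431542 (WT-SB), which the labels give as 10 mM, for 2 h. The other 8 arrays held Smad4-null and Trim33-KD (knock-down) embryoid bodies of the same strain and day, each with activin or SB431542 on 2 arrays, and serve here only to show where WT differed. No group was left untreated, so neither agent's own effect can be separated from that of the other. The labels name neither the clones behind the lines nor the method of the knock-down nor the source of the replicates, so p-values may reflect only technical spread between the samples.

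Activin and nodal bind a pair of receptor kinases at the cell surface, and the type I receptor then phosphorylates Smad2 and Smad3, which join Smad4 and enter the nucleus. SB431542 blocks the kinase of these type I receptors and of the TGF-beta type I receptor. In the early mouse embryo the pathway helps to hold the epiblast in a pluripotent state and drives formation of the primitive streak, from which mesoderm and endoderm arise. Among its best known targets are its own inhibitors, the secreted Lefty proteins and the intracellular Smad7.

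Values are deposited log2 signals of Affymetrix probe sets, with 1 probe set for each gene. The medians of the 12 arrays lay between 5.85 and 6.30. Log2 signals spread least on WT-SB replicate 2 (SD 3.07) and Smad4-null-ac replicate 1 (SD 3.13), called the arrays of narrow spread, while the SD of the other 10 arrays was 3.24 to 3.39. Probe sets for 18S rRNA were dimmest on the first replicates of WT-ac (5.53) and of WT-SB (5.82), while the other 10 arrays had 7.56 to 10.16. The Actb 3' minus 5' difference in log2 signal, a sign of RNA quality, was 0.67 on WT-SB replicate 2 and 0.32 to 0.36 on the other WT arrays. The label of the cells fitted their epiblast markers. All 8 listed, among them Pou5f1, Sox2 and Dnmt3b, were in the upper 50% of genes by mean signal over the 12 arrays. Of the other cell types so were 3 of 7 measured markers of the primitive streak, 3 of 8 for trophectoderm, 2 of 8 for fibroblasts, 1 of 9 for extraembryonic endoderm, 1 of 5 for neuroectoderm and 1 of 7 for blood and endothelium. These shares lie under 50% and do not single out the streak. T (Brachyury), the other streak marker listed, was not found under that symbol and is not counted. The mean includes the other lines. The streak markers Gsc, Lhx1, Evx1 and Mesp1 fell outside the upper 50%, yet on both WT-ac arrays each was above 7.48, where it begins. Evx1, for one, had 8.85 and 8.80 there and 3.44 to 5.08 on the Smad4-null arrays. The summed linear level of the streak markers, as log2, was 13.60 on both WT-ac arrays, against 12.54 and 12.45 on the WT-SB arrays. In RNA of whole embryoid bodies, more or fewer cells of a type and more or less RNA per cell cannot be told apart.

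Activin raised 6 genes against SB431542 and lowered none at an adjusted p under 0.05 (limma, Benjamini-Hochberg adjustment over all 18193 genes, 0.033% called). The 6 were Smad7, Lefty1, Fgf15, Pmepa1, Msx1 and Epha2. No gene was called over all genes when WT-ac replicate 1, WT-ac replicate 2 or WT-SB replicate 2 was left out, without either the 2 arrays of narrow spread or the 2 of low 18S rRNA signal, or when the 4 WT arrays were fitted alone (626 to 1632 genes at an unadjusted p under 0.05). Without adjustment 264 genes were higher (1.45%) and 467 lower (2.57%) at p under 0.05, together 4.02% of the genes. Dim genes spread widely: with the genes cut into 4 equal groups by mean signal, the 5th to 95th percentile of the differences ran from -1.79 to 1.34 in the dimmest group and from -0.18 to 0.19 in the brightest. Among the 9096 genes above the median of mean signal, called brighter genes from here on, 14 rose and none fell when the adjustment ran over these genes alone (0.154% called; 169 higher, 1.86%, and 124 lower, 1.36%, at an unadjusted p under 0.05). They were the 6 genes and Irf1, Fzd10, Relt, Chst15, Lefty2, Myc, Rnd3 and Nrarp. In the text a gene rose or fell where it passed 0.05 in either of these adjustments, and the adjustment is named. Counts of called members in the gene lists below stand beside these shares, 0.033% of all genes and 0.154% of the brighter genes. Lists and members were chosen with earlier results of these data known, so such counts may be in part fixed by the choice.

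Activin against SB431542 was lopsided among the brighter genes. A difference of at least 1 on the log2 scale was found for 19 brighter genes on the raised side (0.209%) and for 1 on the lowered side (0.011%), and in all 20 the WT-ac arrays did not overlap the WT-SB arrays. In the same genes, non-overlapping arrays of any size of difference were found for 892 on the raised side (9.81%) and 1201 on the lowered side (13.2%), so small differences leaned the other way. Over all genes, dim ones included, differences of at least 1 leaned to the lowered side, with 483 raised (2.65%) and 962 lowered (5.29%), of which 319 (1.75%) and 600 (3.3%) had arrays without overlap. Across all genes the median difference was -0.05; it was -0.27 in the dimmest of the 4 groups and -0.02 in the brightest. Without the 2 arrays of narrow spread, these medians were 0.03 and 0.02.

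**Figure D1:**
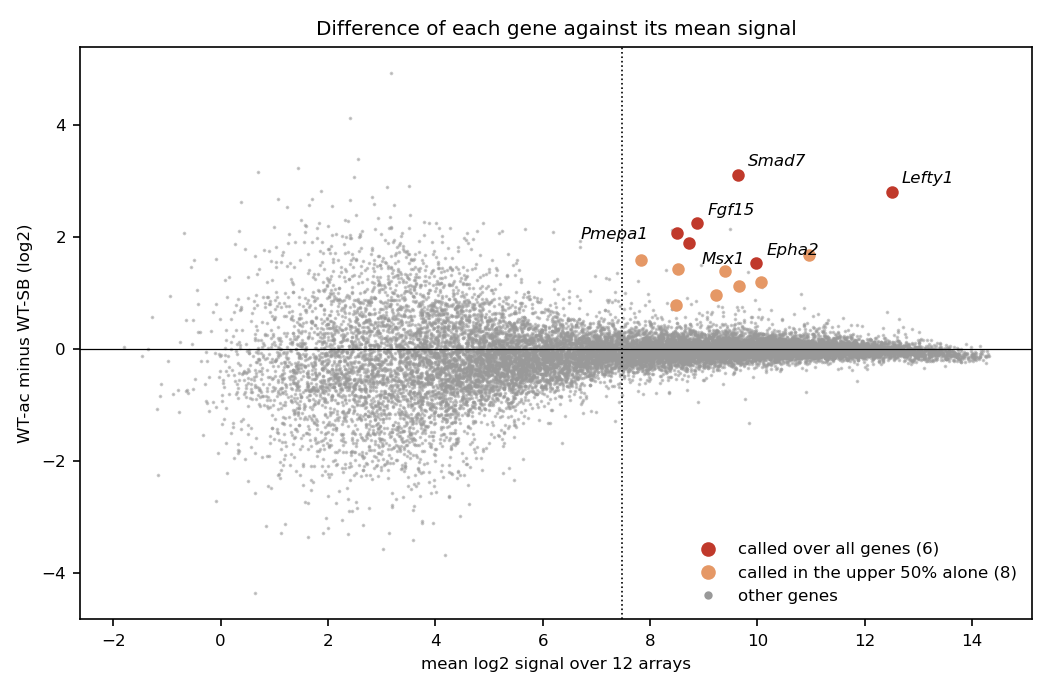
Difference of each of 18193 genes, WT-ac minus WT-SB (log2, vertical axis), against its mean log2 signal over the 12 arrays (horizontal axis); the dotted line marks the lower bound of the brighter genes. Red points are the 6 genes called over all genes, orange points the 8 called among the brighter genes alone and grey points all others; the 14 coloured points all lie above 0, between 0.79 and 3.11.

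**Figure D2:**
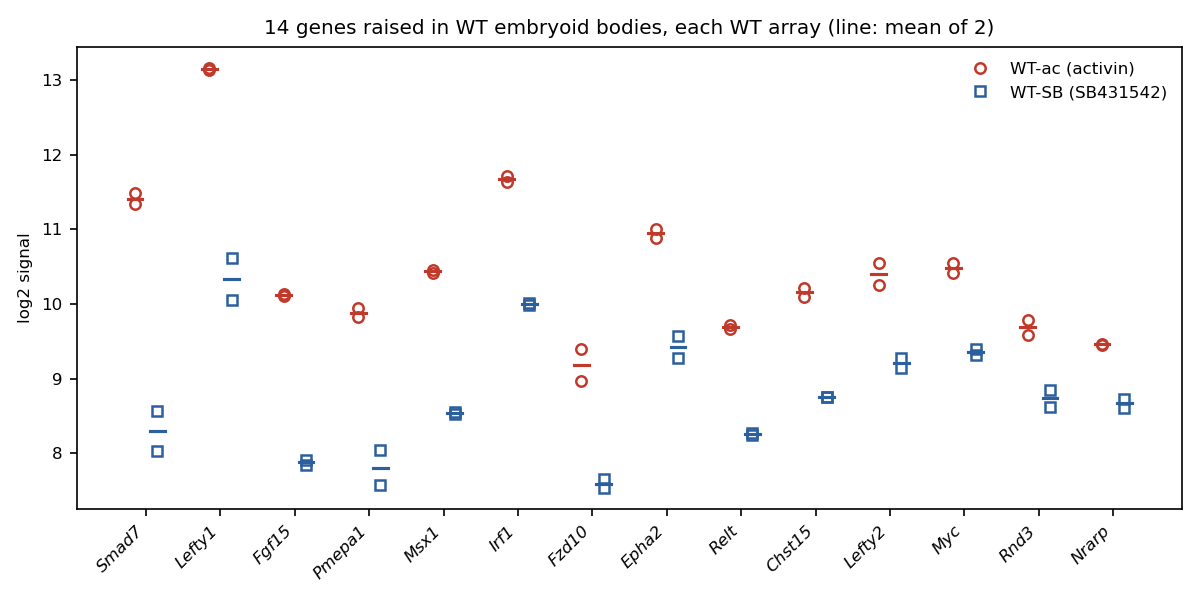
Log2 signal (vertical axis) of the 14 genes that rose in WT embryoid bodies, on each WT-ac array (red circles) and each WT-SB array (blue squares), with the mean of 2 as a line. Both WT-ac arrays lie above both WT-SB arrays in every one of the 14 genes, as in 9.81% of the brighter genes. The 14 were called from these same arrays, so this is in large part fixed by the choice.

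Promoters of the 14 genes are shown because these genes rose together after 2 h. The RefSeq promoter table (assembly GRCm38.p6) held 10 promoters for 8 of the 14 genes, namely Chst15, Epha2, Fzd10, Irf1, Msx1, Nrarp, Relt and Rnd3; the others are Fgf15, Lefty1, Lefty2, Myc, Pmepa1 and Smad7. The 250 bases before the annotated start were searched on both strands for 2 motifs. The first is CAGAC, read as GTCTG from the opposite strand, which holds the short element known to be bound by Smad3 and Smad4. The second is GGCGC, read as GCGCC from the opposite strand, a GC-rich element of Smads; matches of it on opposite strands can overlap. Chst15 and Irf1 have 2 promoters each, and those of Chst15 overlap and hold the same CAGAC match. CAGAC was found in 5 of the 8 genes, or 6 of the 10 promoters, against 42.2% of all 32851 promoters in the table and 39.5% of the 9574 promoters of brighter genes. GGCGC was found in 10 of the 10, against 32.0% of all promoters and 58.6% of those of brighter genes. A match is a description of the sequence and says nothing of binding. The 4 upstream stretches below are those of Msx1 and Epha2, which were called over all genes and have GGCGC alone, of Nrarp, which has the most CAGAC matches (4), and of Fzd10, which has the most GGCGC matches (7); capitals mark the motifs, and each runs 5' to 3' on the strand of its gene.
Msx1, chr5:37824586-37824835, minus strand: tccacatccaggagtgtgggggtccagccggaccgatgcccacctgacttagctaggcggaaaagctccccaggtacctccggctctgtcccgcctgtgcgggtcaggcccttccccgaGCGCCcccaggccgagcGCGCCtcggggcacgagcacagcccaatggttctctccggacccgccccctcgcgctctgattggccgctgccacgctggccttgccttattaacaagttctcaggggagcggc
Epha2, chr4:141300971-141301220, plus strand: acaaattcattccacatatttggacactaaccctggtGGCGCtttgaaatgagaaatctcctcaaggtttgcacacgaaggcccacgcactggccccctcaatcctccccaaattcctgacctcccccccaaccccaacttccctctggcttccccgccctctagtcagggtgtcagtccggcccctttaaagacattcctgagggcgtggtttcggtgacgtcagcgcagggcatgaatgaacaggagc
Nrarp, chr2:25180508-25180757, plus strand: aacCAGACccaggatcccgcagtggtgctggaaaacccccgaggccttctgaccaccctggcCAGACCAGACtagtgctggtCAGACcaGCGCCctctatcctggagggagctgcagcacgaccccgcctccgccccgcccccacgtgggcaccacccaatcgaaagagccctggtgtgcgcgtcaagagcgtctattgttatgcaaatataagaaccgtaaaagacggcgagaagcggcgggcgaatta
Fzd10, chr5:128600856-128601105, plus strand: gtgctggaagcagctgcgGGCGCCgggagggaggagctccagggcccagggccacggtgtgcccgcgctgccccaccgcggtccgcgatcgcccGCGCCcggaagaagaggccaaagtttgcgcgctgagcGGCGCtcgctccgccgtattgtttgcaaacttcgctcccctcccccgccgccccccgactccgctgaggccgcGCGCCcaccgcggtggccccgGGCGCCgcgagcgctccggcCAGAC

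The secreted antagonists of the pathway held the second largest rise among the brighter genes. Lefty1, which keeps nodal from its receptors, had a log2 signal of 13.16 and 13.13 on the WT-ac arrays, against 10.62 and 10.05 on the WT-SB arrays. The groups lay far apart, and the gap between them was several times the gap between the WT-SB arrays. The difference was 2.81 (7.01-fold, SE 0.24, adjusted p = 0.0222 over all genes). Its close relative Lefty2 had 10.26 and 10.55 on the WT-ac arrays, against 9.28 and 9.14 on the WT-SB arrays, a difference of 1.2 (SE 0.15). Both WT-ac arrays were above both WT-SB arrays, and Lefty2 rose among the brighter genes (adjusted p = 0.00354) but not over all genes (adjusted p = 0.128). Of 11 measured secreted nodal and BMP antagonists, 1 rose over all genes (0.033% of all genes). Among the 3 that are brighter genes 2 rose (0.154% of the brighter genes). Their median difference was 0.48, where the median of all genes was -0.05. Fst, the activin-binding follistatin, had 12.40 and 12.50 on the WT-ac arrays, against 12.54 and 12.81 on the WT-SB arrays, and its difference of -0.22 (SE 0.36) lay inside its error. Cer1, the nodal and BMP antagonist Cerberus, was not a brighter gene and differed by 0.48 (SE 0.49). Dand5, a further nodal antagonist and not a brighter gene either, had 5.33 and 4.45 on the WT-ac arrays, against 2.86 and 3.37 on the WT-SB arrays. It did not pass over all genes.

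Feedback inhibitors inside the cell held the largest difference among the brighter genes. Smad7, which blocks the type I receptor and recruits ubiquitin ligases to it, had 11.48 and 11.34 on the WT-ac arrays, against 8.57 and 8.03 on the WT-SB arrays. Both WT-ac arrays were high, and the groups did not overlap. The difference was 3.11 (8.64-fold, 95% interval 5.56 to 13.4, SE 0.27, adjusted p = 0.0222 over all genes). Pmepa1, a membrane protein that keeps Smad2 and Smad3 from the receptor, had 9.82 and 9.95 on the WT-ac arrays, against 8.04 and 7.58 on the WT-SB arrays. It was higher on both WT-ac arrays, by 2.08 (4.22-fold, SE 0.20, adjusted p = 0.0303 over all genes). Its 2 further probe sets differed by 2.31 and 2.93.

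None of the remaining intracellular inhibitors was called. Of 16 measured members, Smad7 and Pmepa1 rose over all genes, where 0.033% of all genes did, and the median was 0.11. Smad6, the inhibitory Smad that acts mainly on BMP signalling, had 8.38 and 8.32 on the WT-ac arrays, against 7.15 and 7.55 on the WT-SB arrays, without overlap; the difference of 1.0 (SE 0.30) did not pass over all genes (adjusted p = 0.891) or among the brighter genes (adjusted p = 0.404). Values were 0.38 (SE 0.16) for the decoy receptor gene Bambi and 0.31 (SE 0.15) for Skil, a corepressor that binds Smads, and neither passed. Nedd4l, a ubiquitin ligase that targets activated Smad2 and Smad3, differed by -0.23 (SE 0.15). The one large negative value of the list belonged to Ldlrad4, a relative of Pmepa1, at -1.5 (SE 0.56); its probe set was dim, and the 3 further probe sets of the gene, dimmer still, gave 0.17, 0.41 and 1.23.

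The ligands, receptors and Smad proteins that carry the signal showed no change that passed a test. Of 18 measured ligand and receptor genes none was called, and their median was 0.01. Nodal, the ligand of this pathway in the embryo, had 11.79 and 12.14 on the WT-ac arrays, against 11.17 and 11.67 on the WT-SB arrays. The groups did not overlap, yet the gap between the WT-SB replicates was nearly as large as the gap between groups. Replicate 2 was the higher in both treatments. The difference of 0.55 (SE 0.19) had an adjusted p of 0.819 among the brighter genes. A further probe set gave 0.69 (SE 0.21), with replicate 1 the higher in both treatments. Tdgf1, the co-receptor Cripto, differed by 0.27 (SE 0.14). None of the 13 measured Smad proteins and partners was called, and their median was 0.03. Their highest value was that of Smad1, a transducer of BMP signals, at 0.51 (SE 0.18), with 10.73 and 11.04 on the WT-ac arrays and 10.39 and 10.36 on the WT-SB arrays.

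Transcription factors of mesendoderm, the common precursor of mesoderm and endoderm, had a median difference of 0.45 over 14 measured members of 15 listed. None passed over all genes or among the brighter genes. T (Brachyury) is not among the 14. Mixl1, a homeobox gene of the primitive streak, had 11.22 and 11.35 on the WT-ac arrays, against 9.17 on both WT-SB arrays. The WT groups were well apart and tight, but the spread that enters the fit comes from all 6 groups, and Mixl1 had 10.43 and 9.09 on the Trim33-KD-ac arrays. Its difference of 2.12 (4.33-fold, SE 0.45) had an adjusted p of 0.523 over all genes and 0.0733 among the brighter genes. Gsc, the organizer homeobox gene goosecoid, had 9.04 and 9.22 on the WT-ac arrays, against 7.07 and 7.04 on the WT-SB arrays. The difference was 2.08 (SE 0.62, adjusted p = 0.875 over all genes). Gsc was not a brighter gene by its mean over the 12 arrays, 6.18, which takes in the low Smad4-null arrays given below. Foxa2, a forkhead factor of the node and endoderm, had 10.61 and 10.75 on the WT-ac arrays, against 9.51 and 8.86 on the WT-SB arrays. It was higher on both WT-ac arrays, by 1.5 (SE 0.51, adjusted p = 0.597 among the brighter genes). Eomes, a T-box factor needed for endoderm and for exit of cells through the streak, had 12.18 and 12.04 on the WT-ac arrays, against 11.49 and 11.36 on the WT-SB arrays, a difference of 0.69 (SE 0.25). Further values were 0.88 (SE 0.51) for Evx1, 0.67 (SE 0.27) for Tbx3, 0.50 (SE 0.85) for Lhx1 and 0.39 (SE 0.26) for Gata6. Across the list, 8 of 14 members had WT-ac arrays above their WT-SB arrays without overlap, where all genes had 9.66%. The list was chosen with earlier results of these data known, so this count may be in part fixed by the choice.

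Targets of the sister BMP pathway included 1 gene that rose. Msx1, a homeobox gene of posterior and dorsal tissues, had 10.41 and 10.46 on the WT-ac arrays, against 8.55 and 8.53 on the WT-SB arrays. The replicates were nearly identical and the groups far apart. Its difference of 1.89 (3.71-fold, SE 0.12) had an adjusted p of 0.00449 over all genes, and a further probe set gave 1.94. Id1, an inhibitor of differentiation that BMP signals induce in many cells, had 11.67 and 11.46 on the WT-ac arrays, against 10.43 and 10.48 on the WT-SB arrays, without overlap; its difference of 1.11 (SE 0.32) did not pass (adjusted p = 0.320 among the brighter genes). Id2 differed by 0.85 (SE 0.30), and by -0.04 when probe sets ending in x_at, s_at or a_at were left out. Of 14 measured BMP targets, 1 rose over all genes, where 0.033% of all genes did, and the median was 0.39.

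FGF ligands held the third largest rise. Fgf15, a secreted FGF of the early neural plate and primitive streak region, had 10.14 and 10.11 on the WT-ac arrays, against 7.85 and 7.91 on the WT-SB arrays. Replicates of either treatment lay close together. The difference was 2.24 (4.74-fold, SE 0.14, adjusted p = 0.00449 over all genes). Fgf8, which cells of the streak need for migration, had 11.89 and 11.85 on the WT-ac arrays, against 10.58 and 10.39 on the WT-SB arrays. It was higher on both WT-ac arrays, but its difference of 1.38 (SE 0.31) did not pass (adjusted p = 0.574 over all genes and 0.0935 among the brighter genes). Fgf5, the FGF of the primed epiblast, differed by 0.31 (SE 0.22). Of 12 FGF ligands and receptors 1 rose over all genes, where 0.033% of all genes did, with a median of 0.18. The feedback and ETS target genes of the ERK kinases, which FGF receptors activate, had a median of 0.06 over 14 members and no call. The highest of them was Il17rd, the membrane inhibitor Sef, at 0.63 (SE 0.23), and the lowest was the ERK phosphatase gene Dusp4 at -0.35 (SE 0.15).

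Among Wnt and Notch genes, 1 of either list rose among the brighter genes. Fzd10, a Frizzled receptor for Wnt ligands, had 9.40 and 8.97 on the WT-ac arrays, against 7.65 and 7.54 on the WT-SB arrays. Both WT-ac arrays were higher, by 1.59 on average (3.02-fold, SE 0.18, adjusted p = 0.00102 among the brighter genes and 0.0827 over all genes); a second, very dim probe set of the gene gave -0.41 (SE 0.81). Wnt11 differed by 1.27 (SE 0.42) and was not a brighter gene. Fzd8 differed by 0.56 (SE 0.24). The 20 Wnt ligands and receptors had a median of 0.14. None of 10 measured targets of canonical Wnt signalling was called; their median was 0.23, and Axin2, the negative regulator often used as the readout of that pathway, had 11.05 and 10.91 on the WT-ac arrays, against 10.45 and 10.36 on the WT-SB arrays (difference 0.57, SE 0.14, adjusted p = 0.260 among the brighter genes). Nrarp, an ankyrin-repeat protein that dampens Notch signals, had 9.47 and 9.45 on the WT-ac arrays, against 8.73 and 8.61 on the WT-SB arrays. The groups did not overlap, and the difference of 0.79 (1.73-fold, SE 0.13) passed among the brighter genes alone (adjusted p = 0.0389). Hes1, a repressor that Notch and other signals induce, had 10.23 and 10.26 on the WT-ac arrays, against 8.37 and 7.83 on the WT-SB arrays. Its difference of 2.14 (4.42-fold) was larger than that of Nrarp, but its SE was 0.44, and it did not pass (adjusted p = 0.0672 among the brighter genes). The Notch ligand gene Jag1 differed by 0.63 (SE 0.18) and the effector gene Hey1 by 0.48 (SE 0.15). The 15 Notch pathway genes had a median of 0.10.

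Among ephrins and their receptors Epha2 alone was called. Epha2, a receptor tyrosine kinase of epiblast and streak, had 11.01 and 10.88 on the WT-ac arrays, against 9.57 and 9.27 on the WT-SB arrays. The WT-ac arrays were higher without overlap, by 1.53 (2.88-fold, SE 0.14, adjusted p = 0.0222 over all genes). The 17 members had a median of -0.01, and the 11 brighter members a median of 0.27, with Efna3 at 0.60 (SE 0.16) and Efnb1 at 0.34 (SE 0.15).

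Immediate early genes, which cells switch on within minutes to hours of a signal, stayed mostly near 0. Of 21 members Myc alone rose, among the brighter genes, and the median was 0.12. Myc, a driver of growth and proliferation, had 10.42 and 10.55 on the WT-ac arrays, against 9.32 and 9.40 on the WT-SB arrays. The groups did not overlap, and the difference was 1.13 (2.19-fold, SE 0.15, adjusted p = 0.00354 among the brighter genes and 0.128 over all genes). Values of other members were 0.78 (SE 0.18) for Zfp36, a protein that destabilizes mRNA, 0.56 (SE 0.25) for Junb, 0.44 (SE 0.17) for Btg2 and -1.32 (SE 0.80) for Ier3, the lowest, and none of these passed. The WT-ac arrays lay above the WT-SB arrays without overlap in 6 of the 21 and below them in 4, where all genes had 9.66% and 17.0%.

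Several genes that rose belonged to no developmental list. Irf1, a transcription factor known from interferon responses, had 11.71 and 11.63 on the WT-ac arrays, against 9.98 and 10.01 on the WT-SB arrays. The gap between treatments was far wider than that between replicates, and the difference was 1.68 (3.20-fold, SE 0.19, adjusted p = 0.000866 among the brighter genes and 0.0791 over all genes). Of 11 interferon genes it was the only one called, and their median was 0.05. Relt, a member of the tumour necrosis factor receptor family, had 9.72 and 9.67 on the WT-ac arrays, against 8.25 and 8.27 on the WT-SB arrays (difference 1.43, SE 0.23). Chst15, a sulfotransferase that modifies chondroitin sulfate, had 10.22 and 10.10 on the WT-ac arrays, against 8.76 on both WT-SB arrays (difference 1.40, SE 0.20). Rnd3, a protein that loosens the actin skeleton, had 9.59 and 9.79 on the WT-ac arrays, against 8.85 and 8.62 on the WT-SB arrays (difference 0.96, SE 0.18). In these 3 genes both WT-ac arrays were above both WT-SB arrays, and the adjusted p among the brighter genes was 0.0131 for Relt, 0.0064 for Chst15 and 0.0478 for Rnd3. The matrix genes Ccn2 and Ccn1, classical targets of TGF-beta, differed by 0.98 (SE 0.20) and 0.65 (SE 0.12) and missed the threshold (adjusted p = 0.0672 for both among the brighter genes). None of the 15 TGF-beta matrix and cytoskeletal targets was called, and their median was 0.04. Of the genes past a difference of 1, Zfp819 (1.41, SE 0.35) and Kif26a (1.21, SE 0.56) were not called and are named after their values were seen; the difference of Kif26a rested on WT-SB replicate 2, where it was 5.55, against 7.64 on WT-SB replicate 1.

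Genes of pluripotency were nearly level. Of 15 naive pluripotency genes and 12 primed epiblast genes none was called, with medians of 0.04 and 0.11. Nanog, a factor of the pluripotent epiblast, had 12.95 and 12.92 on the WT-ac arrays, against 12.41 and 12.14 on the WT-SB arrays. The groups did not overlap, and the difference was 0.66 (SE 0.14, adjusted p = 0.113 among the brighter genes). Sox2 differed by 0.35 (SE 0.17) and Otx2, which marks the primed and anterior epiblast, by 0.58 (SE 0.18). Of 15 genes of epithelial to mesenchymal transition and adhesion none was called (median 0.11). Snai1, the repressor of E-cadherin active in streak cells, had 8.38 and 8.31 on the WT-ac arrays, against 7.07 and 7.11 on the WT-SB arrays; its difference of 1.25 (SE 0.28) had an adjusted p of 0.566 over all genes, and it was not a brighter gene. Prdm1, a regulator of germ cell and endoderm fate, differed by 0.69 (SE 0.23), and none of 9 germ cell genes was called (median 0.22).

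Lists of other cell types held no member that passed, apart from Lefty2 among the nascent mesoderm genes. Medians were 0.04 for 11 neuroectoderm genes, -0.10 for 11 extraembryonic endoderm genes, -0.06 for 10 trophectoderm genes, -0.24 for 13 nascent mesoderm genes, -0.06 for 10 fibroblast genes and -0.39 for 10 blood and endothelium genes. The last 3 lists had at most 2 brighter genes each. Medians were 0.09 for 14 genes of apoptosis and p53, 0.10 for 14 of the G1 cell cycle, 0.06 for 11 of amino acid stress and 0.00 for 10 of cholesterol synthesis, with no call in any of them. Among the amino acid stress genes, Sesn2 differed by 0.54 (SE 0.17) and Chac1 by -0.51 (SE 0.14).

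**Figure D3:**
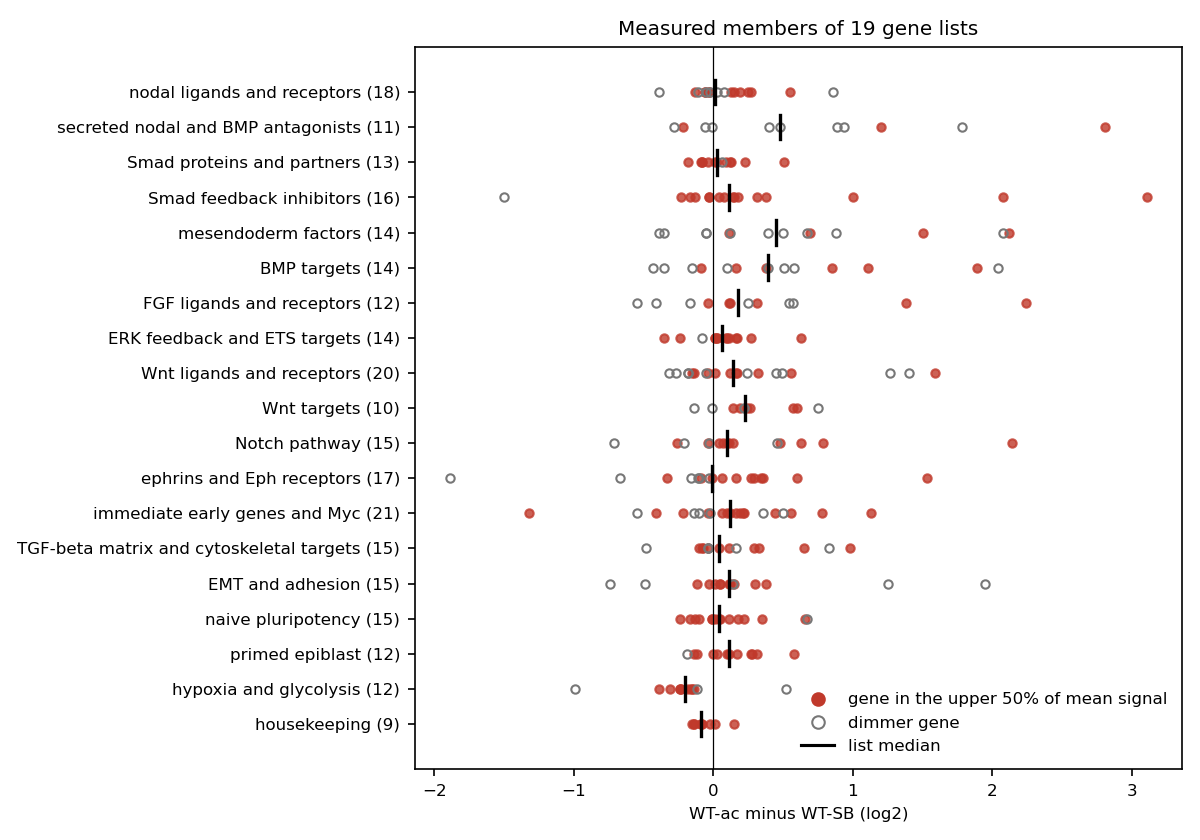
Difference, WT-ac minus WT-SB (log2, horizontal axis), of each measured member of 19 gene lists (rows, with the number of members in brackets). Filled red points are brighter genes, open points dimmer ones and black bars list medians; most medians lie between 0 and 0.48, that of hypoxia and glycolysis at -0.20 and that of housekeeping genes at -0.09.

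No gene fell in WT-ac against WT-SB, over all genes or among the brighter genes. The lowest differences of brighter genes whose arrays did not overlap ran from -1.32 (Ier3) to -0.61 (Accs) over 12 genes. Ier3, an immediate early gene that protects cells from death, had 9.12 and 8.88 on the WT-ac arrays, against 10.50 and 10.14 on the WT-SB arrays. It was lower on both WT-ac arrays, but its SE was 0.80, since it had 8.95 and 11.87 on the Trim33-KD-SB arrays. Txnip, an inhibitor of glucose uptake, had 10.42 on both WT-ac arrays, against 11.25 and 11.10 on the WT-SB arrays. Its difference was -0.76 (SE 0.17), and its further probe set gave -0.84 (SE 0.22). Both activin arrays of Txnip were below both SB431542 arrays in the other lines too, with 11.15 and 10.76 in Smad4-null-ac against 11.39 and 11.50 in Smad4-null-SB, and 10.49 and 10.27 in Trim33-KD-ac against 10.93 and 11.18 in Trim33-KD-SB. The remaining 10 were D2hgdh, Acaa1a, Ccdc112, Brat1, Adamts15, Brsk1, Zfp691, Klhl26, Lurap1l and Accs, with values from -0.94 to -0.61. The -0.94 was that of D2hgdh, whose further probe set gave 0.18 (SE 0.16).

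Genes of hypoxia and glycolysis leaned the same way as a list, below 0 in 11 of 12 members with a median of -0.20, where 60.3% of all genes and 56.8% of the brighter genes were below 0, and none was called. In 6 of the 12 the WT-ac arrays were below the WT-SB arrays without overlap, where all genes had 17.0%. Egln3, an oxygen sensor that marks hypoxia, differed by -0.39 (SE 0.32) and the kinase gene Pdk1 by -0.24 (SE 0.17). Of 9 housekeeping genes none was called, and their median was -0.09. WT-SB replicate 2 stood out in both lists: the summed linear level, as log2, was 16.07 and 16.18 on the WT-ac arrays against 16.07 and 16.56 on the WT-SB arrays for hypoxia and glycolysis, and 15.89 and 15.99 against 15.81 and 16.29 for housekeeping. Without the 2 arrays of narrow spread the medians were -0.06 and 0.11, and the part of that array in these values was not tested further.

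By its title the series concerns the dependence of these responses on Smad4 and Trim33, so the 14 genes that rose in WT were read in the same contrast in the other lines. The targeted genes were read first. Trim33 had 10.29 and 10.25 on the Trim33-KD-ac arrays and 10.35 and 9.85 on the Trim33-KD-SB arrays, against 11.63 and 11.73 on the WT-ac arrays and 11.58 and 11.95 on the WT-SB arrays, so all 4 knock-down arrays were lower. Smad4 was not lower in the arrays labelled Smad4-null: it had 12.16 on both Smad4-null-ac arrays and 12.24 and 12.10 on the Smad4-null-SB arrays, against 11.90 and 12.03 on the WT-ac arrays and 11.90 and 12.02 on the WT-SB arrays. Its 2 further probe sets had 10.95 to 11.43 in Smad4-null and 11.01 to 11.42 in WT. The labels do not say which part of Smad4 was removed, and a probe set outside that part checks nothing, so the Smad4-null label has no check in these data and every Smad4-null value below is that of arrays so labelled. The 14 were chosen on the WT arrays, and those arrays enter every difference from WT, so smaller values in another line are in part fixed by the choice. In embryoid bodies labelled Smad4-null the differences of the 14 ran from -0.16 (Relt) to 1.26 (Lefty1) with a median of 0.54, against 1.56 in WT, and none was called (0.0% of brighter genes called raised in that line; 224, or 2.46%, higher at an unadjusted p under 0.05). In Trim33-KD embryoid bodies they ran from 0.28 (Nrarp) to 2.56 with a median of 1.53, and 12 of the 14 rose among the brighter genes (0.143% called raised), all but Nrarp and Rnd3. The Trim33-KD differences did not enter the choice of the 14, but the Trim33-KD arrays did, through the mean signal that defines the brighter genes and through the estimate of each gene's spread, which all groups share.

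Smad7 showed the contrast between lines most plainly. It had 8.82 and 9.02 in Smad4-null-ac against 8.52 and 8.85 in Smad4-null-SB, and 11.39 and 11.68 in Trim33-KD-ac against 8.64 and 9.30 in Trim33-KD-SB. The Smad4-null arrays overlapped between treatments, and the Trim33-KD arrays did not. The response of the arrays labelled Smad4-null was lower than the WT response by 2.88 on the log2 scale (SE 0.39). Such a difference between responses passed among the brighter genes for 4 genes, all lower in the arrays labelled Smad4-null than in WT (0.044% called lowered): Smad7 and Fgf15 (adjusted p = 0.0129 for both) and Msx1 and Epha2 (0.0488 for both). Over all genes none passed (limma, 1317 genes, 7.24%, at an unadjusted p under 0.05). Smad4-null minus WT was -1.61 (SE 0.20) for Fgf15, -1.15 (SE 0.17) for Msx1 and -1.26 (SE 0.19) for Epha2. Fgf15 kept a smaller difference of 0.63 (95% interval 0.31 to 0.95) in Smad4-null, with 9.50 and 9.54 in Smad4-null-ac against 8.84 and 8.93 in Smad4-null-SB. In WT it had 10.14 and 10.11 with activin and 7.85 and 7.91 with SB431542. Its Smad4-null level was thus higher than in WT with SB431542 and lower with activin. Msx1 had 7.93 and 7.96 in Smad4-null-ac against 7.16 and 7.26 in Smad4-null-SB, a difference of 0.74 (95% interval 0.46 to 1.01). Both treatments lay below WT, where Msx1 had 10.41 and 10.46 with activin and 8.55 and 8.53 with SB431542.

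Lefty1, like Fgf15 and Msx1 above, differed between the lines in its level as well as in its response. With SB431542 it had 12.40 and 12.46 in Smad4-null-SB and 11.50 and 12.09 in Trim33-KD-SB, against 10.62 and 10.05 in WT-SB. With activin it had 13.79 and 13.58 in Smad4-null-ac and 13.51 and 13.70 in Trim33-KD-ac, against 13.16 and 13.13 in WT-ac. The inhibitor arrays thus lay farther apart between lines than the activin arrays did. The response was lower than in WT by 1.55 (SE 0.34) in Smad4-null and by 1.0 (SE 0.34) in Trim33-KD, and neither difference passed among the brighter genes (adjusted p = 0.279 for Smad4-null and 1.0 for Trim33-KD).

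Between Trim33-KD and WT no gene's difference in response passed over all genes or among the brighter genes (limma, 485 genes, 2.67%, and 89 genes, 0.978%, at an unadjusted p under 0.05). The 95% interval of Trim33-KD minus WT held 0 for 12 of the 14 genes, among them Smad7 (-0.55, interval -1.45 to 0.35), Fgf15 (0.32, -0.14 to 0.77) and Msx1 (-0.28, -0.67 to 0.11), and these intervals give the size of difference that remains possible. It lay below 0 for Lefty1 and for Nrarp (-0.51, -0.95 to -0.07). Mixl1 and Gsc were not called in WT, and no test set them against each other. Mixl1 had 6.31 and 5.49 in Smad4-null-ac against 6.23 and 5.83 in Smad4-null-SB, far under its WT level and with overlap between treatments. Gsc had 5.85 and 4.25 in Smad4-null-ac against 2.00 and 2.74 in Smad4-null-SB, a difference of 2.68 (SE 0.62, adjusted p = 0.418 over all genes) at a signal that in Smad4-null-SB lay in the range of the dimmest of the 4 groups of genes. The median difference of that group of genes in Smad4-null was 0.45. The 5.85 was on Smad4-null-ac replicate 1, an array of narrow spread. Smad4-null minus WT was -2.24 (95% interval -3.74 to -0.75) for Mixl1 and 0.60 (-1.44 to 2.64) for Gsc, and neither passed over all genes.

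**Figure D4:**
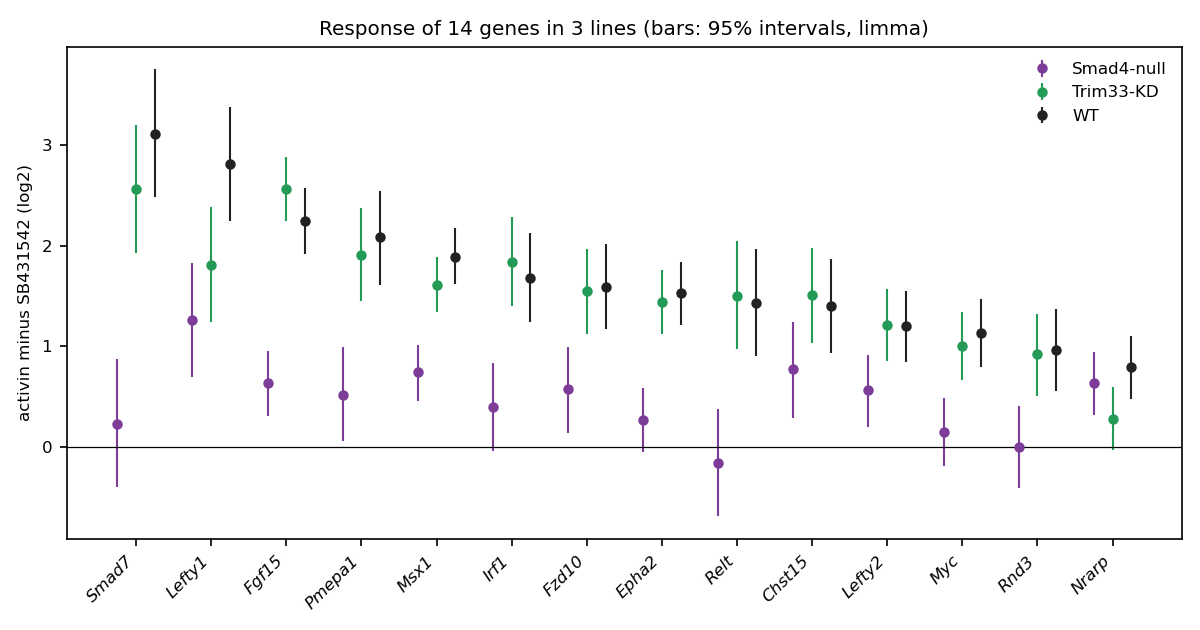
Response, activin minus SB431542 (log2, vertical axis), of the 14 genes that rose in WT, in Smad4-null (purple), Trim33-KD (green) and WT (black) embryoid bodies, with 95% intervals of limma. Smad4-null values lie between -0.16 and 1.26, Trim33-KD values between 0.28 and 2.56 and WT values between 0.79 and 3.11.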

How the data were processed

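Per the labels' protocols, biotin-labelled cRNA was prepared from 6 ug of total RNA of each of 12 samples and hybridized to Affymetrix mouse arrays. The deposited log2 values, 1 per probe set, entered as they stand. On the linear scale every array averages 500 once 2% is trimmed from each end, as tested on the files. How probes were summarized is not stated in the sources used here. The submitters' processing notes name limma. Array data have no read depth, and the 2 arrays per group limit the precision.

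Of 45101 probe sets, 64 were controls; 34945 had exactly 1 gene symbol in the platform annotation, 932 several and 9160 none. Each of 18193 genes was represented by its brightest probe set, by the mean of 12 arrays; 9010 genes had a choice. All 12 arrays entered 1 linear model with a mean for every group (6 residual degrees of freedom), in R 4.3.3 with limma 3.58.1 (lmFit, eBayes), and p-values were adjusted over all genes by Benjamini-Hochberg, with 0.05 as the threshold. The fit was tested on simulated data. Figures were drawn with matplotlib 3.10.9.

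Named genes were those called over all genes or in the upper 50% by mean signal; the 12 highest and 12 lowest non-overlapping differences in that upper 50%; all members of 5 lists (nodal ligands and receptors, secreted antagonists, Smad proteins, Smad feedback inhibitors, mesendoderm factors); up to 4 members of each further list by smallest p; and Smad4 and Trim33. The 31 lists named 400 different genes, of which 382 were measured. Members and lists were chosen with earlier results of these data known. Same-numbered arrays were not taken to pair: the correlation of their deviations between the activin and SB431542 groups was 0.385 in WT and 0.335 in Trim33-KD but -0.192 in Smad4-null. Alternatives were other normalizations, filters, probe set choices, variance models, a replicate block and leaving out arrays.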

Additional observations from a re-analysis of the deposited data

Results flagged for a closer look

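Of 74 genes whose difference is printed above, 15 moved the opposite way in another line, with both activin arrays on 1 side of both SB431542 arrays in WT and on the other side there; 14 did so in Smad4-null and 1 in Trim33-KD (log2 differences, activin minus SB431542). Above 0 in Smad4-null and below 0 in WT were Ldlrad4 (1.71 in Smad4-null, -1.5 in WT), Klhl26 (0.53, -0.63), Fst (0.50, -0.22), Accs (0.25, -0.61), Acaa1a (0.21, -0.79) and Ccdc112 (0.07, -0.79). Below 0 in Smad4-null and above 0 in WT were Lhx1 (-1.36 in Smad4-null, 0.50 in WT), Kif26a (-0.92, 1.21), Sesn2 (-0.29, 0.54), Smad1 (-0.27, 0.51), Bambi (-0.21, 0.38), Sox2 (-0.19, 0.35), Il17rd (-0.13, 0.63) and Fgf5 (-0.07, 0.31). Brsk1 was at 1.33 in Trim33-KD and -0.75 in WT. The share of all genes that moved this way was not counted, so the 14 and the 1 have no background beside them. Some of the 74 were named because their WT arrays did not overlap, so the WT side of this rule is in part fixed by the choice. The arrays of narrow spread lie on opposite sides of the WT and Smad4-null contrasts, in WT-SB and in Smad4-null-ac. In the dimmest of the 4 groups of genes the median difference was -0.27 in WT, 0.45 in Smad4-null and -0.13 in Trim33-KD. In the brightest it was -0.02, 0.02 and -0.02. The part of these shifts in the split was not tested. None of the 15 was called in WT. The difference between lines was tested in limma and passed for none of them over all genes, with adjusted p from 0.347 (Acaa1a) to 1.0 (Brsk1).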

How the results depend on the processing

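The count of 6 called genes, all raised, held within 1.5 times with quantile normalization (6), array weights (6), probe sets averaged within genes (4), probe sets ending in x_at, s_at or a_at left out (4) and all probe sets (5), all of them raised. Leaving out those endings removed the only probe sets of Epha2, Irf1 and Myc, so these genes were not tested there. With linear values floored at 64 the count was 4, of which 3 were raised and 1 lowered. It was 2 after median centring, 11 among the upper 75% of genes, 14 among the upper 50%, 13 with a trended and robust prior and 2 for a change of at least 1.5-fold. It was 0 with only the 4 WT arrays, without the 2 arrays of narrow spread and without the 2 arrays of low 18S rRNA signal (limma; 732, 783 and 1632 genes at an unadjusted p under 0.05). Leaving out 1 array gave 0 to 13: 0 without WT-ac replicate 1, WT-ac replicate 2 or WT-SB replicate 2 (873, 626 and 676 genes at an unadjusted p under 0.05), 13 without WT-SB replicate 1 (9 raised, 4 lowered) and 2 to 4 without any 1 array of the other lines. A replicate block gave 2 over all 12 arrays and 0 in the 4 WT arrays (812 genes at an unadjusted p under 0.05). Among the brighter genes, settings chosen after the data were seen gave 10, 8, 16 and 9 without WT-ac replicate 1, WT-ac replicate 2, WT-SB replicate 1 and WT-SB replicate 2, and 6 without the 2 arrays of narrow spread; each included the 6 genes. Over the alternatives Fgf15 stayed between 2.20 and 2.36, Msx1 between 1.87 and 2.01, Lefty1 between 2.52 and 3.10, Smad7 between 2.59 and 3.38, Pmepa1 between 1.84 and 2.44 and Epha2 between 1.37 and 1.68, while Fzd10 ranged from 0.59, with the mean of its probe sets, to 1.81. The Smad4-null minus WT count of 0 was 4 among the brighter genes and 2 with the trended and robust prior, all lower in Smad4-null, but 11 with the floor of 64 and 1 without the arrays of low 18S rRNA signal, all higher in Smad4-null and none of them among the 4; the Trim33-KD minus WT count of 0 was 2 with the floor of 64 and 2 without Trim33-KD-ac replicate 1, the other arrays left out giving 0. The sign turned without probe sets ending in x_at, s_at or a_at for D2hgdh (0.18), Id2 (-0.04) and Ldlrad4 (0.41), and with the mean of its probe sets for Ldlrad4 (0.08). The cause was not tested. Median differences over the alternatives ran from 0.00 to 1.2 for the secreted antagonists, 0.03 to 0.22 for the Smad feedback inhibitors, 0.33 to 1.09 for the mesendoderm factors, 0.10 to 0.61 for the BMP targets and -0.39 to -0.06 for hypoxia and glycolysis.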
